A study of Drosophila melanogaster with 18 samples.

Results

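The occupancy landscape of RNA polymerase II in the mesoderm of Drosophila melanogaster embryos was read from the 3 twi Dam-PolII libraries, of 18 libraries in the series. Counts at each GATC site were scaled to 1000000 counts per library (CPM), summed over the sites of each annotated gene and divided by the number of those sites, which gives a level in CPM per site. The ranking covered the 13650 genes with 3 or more GATC sites, of 18358 annotated genes. The gene rule used the number of sites alone and no measured level. The series was made to find targets of the receptor tyrosine kinase Alk with a general and a tissue-specific driver. In the twi Dam-PolII embryos, twi2xPE-GAL4, a driver active in the mesoderm at large, expressed the Dam-PolII fusion from a UAS transgene with no further transgene that alters Alk signaling. In the group labelled bap Dam-PolII, the same fusion was under bap-GAL4, which is active in the visceral mesoderm. Both groups were pools of embryos at stages 10 to 13 from a 4 h collection at 25 °C, with 3 biological replicates each. All 18 libraries carry the fusion, and no library of unfused Dam was among them, so binding by the polymerase and access of Dam to the DNA cannot be told apart.

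In targeted DamID (TaDa), a bacterial adenine methylase is tethered to a protein of interest and made at a low level in chosen cells, and it methylates GATC sequences near the places where that protein meets DNA. The methylated DNA is then cut out of whole embryos without sorting cells, amplified and sequenced. RNA polymerase II gathers at promoters and travels through the genes that it transcribes, so its footprint is broad. The embryonic mesoderm at these stages is dividing into somatic, visceral and cardiac lineages, and myoblasts are choosing their identity and starting to fuse.

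Because every value below rests on reads at GATC motifs, the strongest site of 6 genes is shown first, with 60 bases on either side. The 6 were chosen to cover the top of the ranking (lncRNA:CR45360, CG3909), a Notch target (E(spl)mgamma-HLH), muscle structural genes (Act87E, Tm2) and a myoblast regulator (lmd). Each sequence is from the NCBI RefSeq Release 6 genome, runs 5′ to 3′ on the strand of the gene, and has every GATC in capitals.
lncRNA:CR45360, chr2L:20488177-20488300, plus strand: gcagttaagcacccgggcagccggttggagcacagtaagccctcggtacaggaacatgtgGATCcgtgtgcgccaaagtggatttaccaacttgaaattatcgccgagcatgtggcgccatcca
CG3909, chr3R:10043241-10043364, plus strand: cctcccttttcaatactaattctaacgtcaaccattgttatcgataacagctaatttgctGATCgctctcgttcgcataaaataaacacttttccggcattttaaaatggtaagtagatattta
E(spl)mgamma-HLH, chr3R:26000000-26000123, plus strand: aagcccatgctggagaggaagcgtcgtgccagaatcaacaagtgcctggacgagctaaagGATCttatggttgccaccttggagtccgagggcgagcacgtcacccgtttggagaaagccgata
Act87E, chr3R:13426046-13426169, plus strand: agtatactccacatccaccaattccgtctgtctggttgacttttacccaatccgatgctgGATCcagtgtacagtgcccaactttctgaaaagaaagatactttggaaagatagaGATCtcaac
Tm2, chr3R:15310150-15310273, plus strand: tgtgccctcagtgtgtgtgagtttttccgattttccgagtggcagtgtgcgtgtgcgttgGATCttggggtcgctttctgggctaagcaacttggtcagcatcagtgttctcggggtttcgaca
lmd, chr3R:23026639-23026762, minus strand: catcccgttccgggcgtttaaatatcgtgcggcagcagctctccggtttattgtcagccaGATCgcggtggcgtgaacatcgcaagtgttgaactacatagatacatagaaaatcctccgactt
The central site of lncRNA:CR45360 held 1555, 1633 and 1619 CPM in replicates 1 to 3, and that of CG3909 held 1281, 1169 and 1092 CPM. The sites of Tm2 and lmd lie 18.5 and 12.5 bp from the annotated gene start (counted to the middle of the motif) and held 459 ± 37.9 and 192 ± 10.9 CPM (SD, n = 3). The site of Act87E is intronic, 124.5 bp from the start, and held 715 ± 42.4 CPM, while that of E(spl)mgamma-HLH is exonic and held 278 ± 25.3 CPM (SD, n = 3 each). These sites were picked as the strongest of high genes, so their height is a description. The 3 libraries gave like levels at each of the 6.

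The 3 libraries held 6056257, 9854555 and 8201697 counts over 400733 GATC sites, and 42.8%, 48.7% and 42.4% of the sites had a count. The signal was concentrated: the top 1% of sites held 49.2% to 49.7% of the counts of a library. Sites inside genes held 81.0% to 81.3%, mitochondrial DNA 0.197% to 0.258% and ribosomal DNA 0.198% to 0.219% of the counts. A floor of 3 counts at 1 site corresponded to 0.495, 0.304 and 0.366 CPM. These floors reflect counting alone, since reads of PCR-amplified DNA do not stand for separate molecules. The gene ranking was close to the same in all 3 libraries, with Spearman's rho of 0.908 to 0.921 between pairs across 13650 genes, which are not independent replicates.

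Occupancy was spread very unevenly over genes. The median gene had 0.773 CPM per site, the gene at the 90th percentile 6.56 and the gene at the 99th percentile 46.9. The highest 1% of genes (136 genes) took 9.83 ± 0.039% of all counts with 0.306% of the sites, and the highest 10% (1365 genes) took 44.2 ± 0.12% with 6.87% of the sites (SD, n = 3). At the other end, the lower 50% of genes held 4.11 ± 0.045% of the counts with 32.9% of the sites (SD, n = 3). For 742 genes (5.44%) no library held more than 3 counts, and 229 of these had none in any library. The order was firmest at the top: 90 of the 100 highest genes were among the 100 highest in each library, and the median coefficient of variation over libraries grew from 8.97% in the highest decile of genes to 125% in the lowest.

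**Figure D1:**
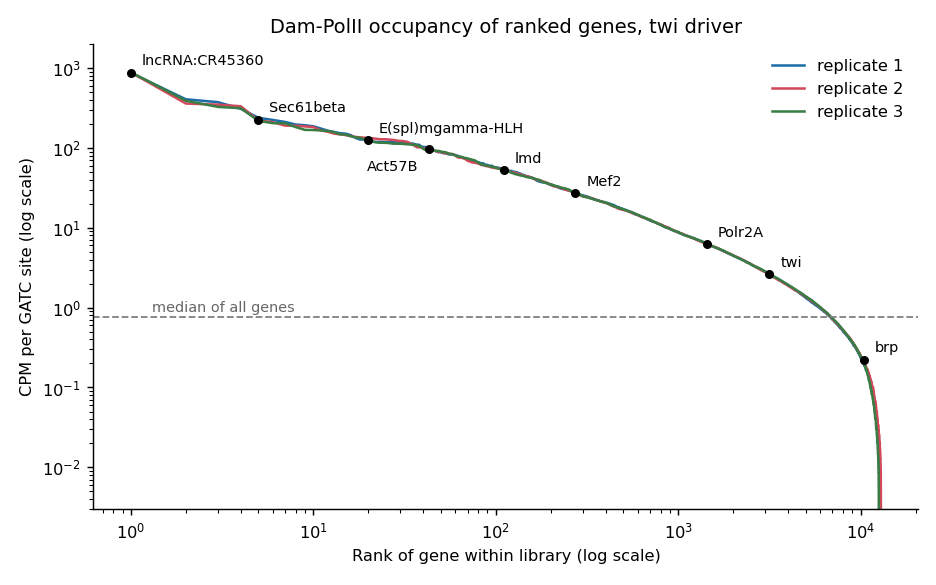
Genes ranked by CPM per GATC site within each of the 3 twi Dam-PolII libraries (lines; both axes on a log scale), with 9 genes marked at their mean level and rank. The 3 curves lie on each other down to the median of 0.773 CPM per site, from 878 for lncRNA:CR45360 through 27.4 for Mef2 to 0.224 for brp.

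The gene with the highest level was lncRNA:CR45360 (FBgn0266900, chromosome 2L from 20487976 to 20488777, 4 sites), a long noncoding RNA gene, with 867, 883 and 885 CPM per site. Its neighbour lncRNA:CR45361 (2L from 20484399 to 20487548) stood 6th with 203 ± 7.03 CPM per site (SD, n = 3), so this stretch of 2L held the strongest signal of the ranking. Other noncoding genes among the 20 highest on the chromosome arms were lncRNA:CR43642 on 3R (193 ± 8.83) and lncRNA:CR44889 on X (132 ± 4.40). Positions are Release 6 coordinates throughout.

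Of the protein-coding genes, CG3770 on 2R (406, 359 and 390 CPM per site) and CG3909 on 3R (374, 348 and 326) led, followed by CG13319 (309, 332 and 314) and Sec61beta (238, 220 and 218). Sec61beta encodes a subunit of the channel that moves proteins into the endoplasmic reticulum, and Calr (151 ± 11.8), a calcium-binding chaperone of the same compartment, was also among the 20. Metabolic and redox enzymes were represented by Taldo, the transaldolase of the pentose phosphate pathway (146 ± 10.6), and the thioredoxin Trx2 (182 ± 14.7). Ribosomal protein genes supplied RpLP2 (211, 166 and 167) and RpS30 (113, 128 and 140), and the Notch-responsive repressor E(spl)mgamma-HLH had 119, 137 and 122 (SD, n = 3 for each mean above). The ranges of RpS30 and E(spl)mgamma-HLH overlapped, whereas lncRNA:CR45360 stood clear of every other gene in all 3 libraries. Of genes off the arms, mt:Cyt-b on the mitochondrial genome had 197 ± 23.0 CPM per site (SD, n = 3). Counts were not scaled to the number of copies of the DNA in a cell, so this value is no measure of polymerase II.

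The linker histone H1 was the largest gene family at the top. All 23 annotated His1 copies were among the 100 highest genes, with levels from 64.2 to 173 and a median of 118 CPM per site, and His1:CG31617 (173), His1:CG33813 (155), His1:CG33804 (152), His1:CG33816 (136) and His1:CG33849 (125) were among the 20 highest. These copies are near-identical repeats of the histone cluster on 2L, so the division of reads among them is uncertain and they are not separate measurements. Their levels were not scaled to the number of copies in the genome.

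The 100 highest genes were short, with a median length of 1108 bp against 2341 bp over all ranked genes, and a median of 5 sites against 10. They included 84 protein-coding genes and 15 noncoding RNA genes. In 38 of them a single site held 50% or more of the counts of the gene. RpLP2 had 94.1% of its counts in 1 of 3 sites and fell from rank 10 to 269 when that site was left out, and Taldo, with 88.3% in 1 of 10 sites, fell from 16 to 211. CG3770 (83.6%) and CG3909 (84.5%) moved less, from ranks 2 and 3 to 30 and 34. Without the strongest site of each gene, 79 of the 100 stayed within the 100 highest and 91 within the 1000 highest, and lncRNA:CR45360 stayed first with 637 CPM per site. The strongest site lay in an exon in 86 of the 100 and within 250 bp of a gene start in 31. It lay 251.5 bp from the start, just outside this limit, in His1:CG31617 and many other His1 copies. The 23 His1 copies enter each of these counts and medians over the 100 genes.

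The check of the tissue came next. Of 9 mesoderm markers (twi, Mef2, htl, tin, zfh1, how, stumps, Mes2 and Him), all were above the median of all genes and 7 were in the highest 10%, with a median level of 16.1 CPM per site. All 7 somatic muscle markers and all 6 visceral mesoderm markers were above the median, with 5 and 1 in the highest 10%. Of 11 neural markers, 7 were above the median and 1, elav, was in the highest 10%, with a median level of 1.25. Markers of further tissues were mixed. Above the median were all 3 endoderm markers (median level 6.14, 1 in the highest 10%) and all 3 germ line markers found by symbol in the annotation (4.20). So were 4 of 5 ectoderm markers (1.29), 2 of 3 blood markers (0.880) and 2 of 3 salivary gland markers (0.977), but neither of the tracheal markers trh and btl (0.411). The endoderm median, which is the level of GATAe alone, was above that of the 6 visceral mesoderm markers (5.29). The endoderm markers srp and GATAe lie near each other on 3R, so this set of 3 is a narrow base. No marker was at 0 in all 3 libraries. The summed level of the mesoderm markers was 128 to 137 CPM per site per library and that of the neural markers 25.4 to 25.8. A gene with more methylation per cell and a gene methylated in more cells cannot be told apart in these pooled embryos.

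The gene twi itself had 2.57, 2.53 and 2.70 CPM per site (rank 3159). The annotation used here gives it a span of 62952 bp with 234 sites, from 22985374 to 23048325 on 2R, because its longest transcript starts far upstream. Over the transcript of 2218 bp at the 3′ end of that span, which holds 17 sites, its level was 18.2, 18.3 and 17.9 CPM per site. A shorter transcript of 2004 bp with the same end, which holds 16 of these sites, had 8.80, 8.95 and 7.77. Much of the signal over the transcript of 2218 bp thus lay at its 5′ end. The level of twi therefore depended on the gene model used. Polr2A, the gene for the biggest polymerase II subunit, had 6.11, 6.31 and 6.24 CPM per site (rank 1442), with 5.31 at its 50 exonic and 17.6 at its 4 intronic sites.

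**Figure D2:**
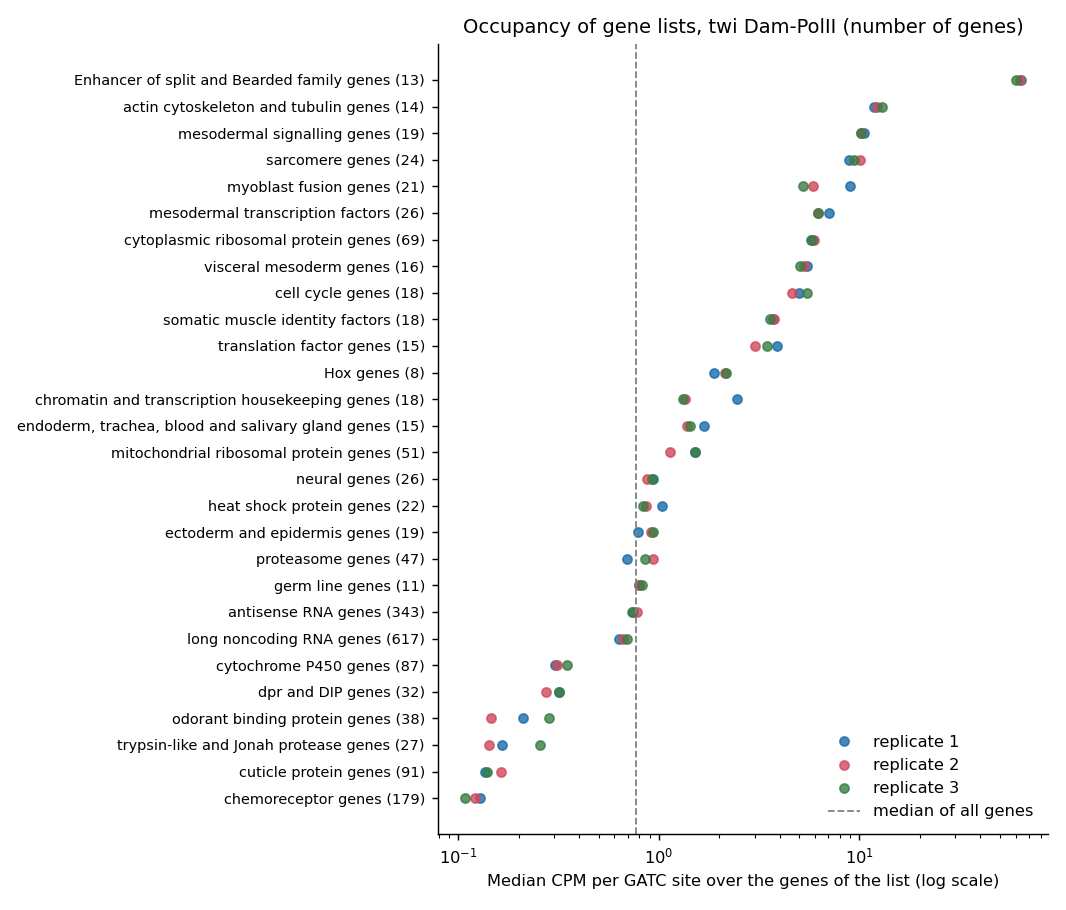
Median CPM per GATC site (log scale) of 28 gene lists in each of the 3 twi Dam-PolII libraries, with the number of genes in parentheses and the median of all genes as a dashed line. Enhancer of split and Bearded family genes lie highest, at a mean of 62.3, and chemoreceptor genes lowest, at 0.119.

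Gene classes were then set beside the whole ranking, whose median was 0.769 ± 0.011 CPM per site (SD over library medians, n = 3) and of which 10% form the highest decile by construction. The lists are described by counts and medians only, and some genes stand in more than 1 list. Lists of mesoderm and muscle genes lay high. The 24 sarcomere genes, which encode the contractile apparatus, had a median of 9.44 ± 0.56 CPM per site, 16 were in the highest decile and none was in the lower 50% of genes. The actins Act57B (98.7, 97.5 and 92.9 CPM per site) and Act87E (71.2, 73.9 and 70.4) led, followed by the tropomyosin gene Tm2 (59.4, 57.1 and 52.4). The lowest member, Msp300, which encodes a giant spectrin-repeat protein and has 372 sites, had 1.66 ± 0.056. The sarcomere genes thus ran from the very top of the ranking down to percentile 67.9, with the 3 libraries close together for each of the 4 genes named.

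Of 26 mesodermal transcription factor genes, 13 were in the highest decile and none was in the lower 50%, with a median of 6.51 ± 0.49 CPM per site (SD, n = 3). Kah, a zinc finger factor of the Snail and Scratch family, was the highest with 31.1, 33.1 and 31.2 CPM per site, and Mef2, the general activator of muscle genes, followed with 28.3, 26.8 and 27.1. The forkhead gene slp1 had 24.9, 20.4 and 23.4, while its neighbour and relative slp2 was the lowest member with 0.826, 0.518 and 1.21. Among 18 genes for somatic muscle identity factors the median was 3.68 ± 0.089 and 4 were in the highest decile. They were led by lmd (56.3, 49.5 and 53.3), required in fusion-competent myoblasts, nau (29.6, 26.1 and 24.7), the fly relative of MyoD, and Kr (7.43, 9.23 and 15.3). The 3 values of Kr were the furthest apart of these, and unpg was the lowest with 0.390 ± 0.18.

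The 21 myoblast fusion genes had a median of 6.68 ± 2.01 CPM per site and 11 in the highest decile. After lmd, which is in this list too, came the small GTPase gene Rac2 (45.6, 40.6 and 47.2) and Vrp1 (38.8, 38.4 and 40.1), which encodes an actin regulator of the WIP family. Hem, of the actin-nucleating WAVE complex, was the lowest at 0.735 ± 0.46. Of 19 mesodermal signalling genes 13 were in the highest decile, with a median of 10.3 ± 0.23 and none in the lower 50%. The ETS repressor gene aop (34.2, 37.3 and 36.9), the RNA-binding protein gene how (25.6, 23.6 and 24.6) and the receptor tyrosine kinase antagonist gene sty (22.6, 23.1 and 23.8) were the highest, and the FGF ligand gene ths was the lowest with 1.60 ± 0.085.

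Visceral mesoderm genes, whose tissue is part of the mesoderm covered by the driver, had a median of 5.28 ± 0.22 CPM per site over 16 genes, with 4 in the highest decile. Besides Kah, fax (22.7, 23.4 and 22.0) and CG11658 (18.4, 18.5 and 17.1) were the highest. jeb, which encodes the ligand of Alk, was the lowest with 1.06, 0.646 and 0.589. The factor genes bap and bin stood at 5.78 ± 0.67 and 5.23 ± 0.37 and Alk at 4.39 ± 0.85 (SD, n = 3 each). The study put forward Kah, fax and CG11658 from this same series, so their levels describe the list and are no separate support for it. Of the 6 visceral mesoderm markers, which do not include these genes, 1 was in the highest 10%.

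Cytoskeletal and growth genes were also high. The 14 actin cytoskeleton and tubulin genes had a median of 12.3 ± 0.53 CPM per site with 10 in the highest decile, led by the profilin gene chic (86.2, 84.0 and 88.1), betaTub60D (70.7, 75.3 and 73.9) and the cofilin gene tsr (29.8, 30.5 and 35.0), with cpb the lowest at 0.607 ± 0.48. Cytoplasmic ribosomal protein genes had a median of 5.82 ± 0.093 over the 69 of 85 with 3 or more sites, and 31 were in the highest decile. RpL10Aa, with 0.0974 ± 0.15, was the lowest of them. The 18 cell cycle genes had a median of 5.03 ± 0.44, with the cyclin-dependent kinase inhibitor gene dap (25.3, 29.3 and 32.1), the Cdc25 phosphatase gene stg (29.3, 28.4 and 26.8) and fzr (23.9, 26.6 and 21.0) as the highest and PCNA (0.982 ± 0.36) as the lowest. For translation factors the median over 15 genes was 3.46 ± 0.44. Here eEF1alpha1 had 40.1, 38.9 and 37.9, pAbp 11.1 ± 0.71 and eEF5 8.75 ± 1.25, against 0.101 ± 0.078 for the paralog eEF1alpha2.

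Mitochondrial ribosomal protein genes lay lower than cytoplasmic ones, with a median of 1.39 ± 0.21 CPM per site over 51 genes and 7 in the highest decile. mRpL55 (mean 47.3), mRpS10 (43.5 ± 5.36) and mRpL17 (19.8 ± 4.24) were the highest and mRpL30 (0.0660 ± 0.11) the lowest. Proteasome genes had a median of 0.829 ± 0.12 over 47 genes and 1 in the highest decile, with Rpn9 (6.68 ± 1.21), Rpn7 (6.50 ± 1.95) and Prosbeta1 (4.94 ± 0.77) at the top and Prosbeta5R1 at 0.00369 ± 0.0064. The proteasome list, in which paralogs such as Prosbeta5R1 are included, lay at percentile 53.2 in the median, near the middle of all genes. Chromatin and transcription genes had a median of 1.71 ± 0.65 over 18 genes, from the GAGA factor gene Trl (48.0, 47.7 and 45.1), ph-p (26.8 ± 0.47) and ph-d (7.23 ± 0.33) to Polr2B (0.136 ± 0.038). The 22 heat shock protein genes had a median of 0.910 ± 0.11, with Hsc70-4 (30.5 ± 1.81), a constitutive chaperone gene, Hsp67Bc (17.9 ± 2.47) and Hsc70-3 (9.07 ± 0.84) as the highest and Hsp60D (0.0161 ± 0.020) as the lowest.

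The highest list of all was that of the Enhancer of split and Bearded families, small genes that respond to Notch. Of its 13 ranked genes 12 were in the highest decile, with a median of 62.3 ± 2.03 CPM per site (SD, n = 3). E(spl)mgamma-HLH was followed by E(spl)mdelta-HLH (117, 136 and 110) and E(spl)m7-HLH (72.8, 86.6 and 77.2), and E(spl)m6-BFM was alone outside the highest decile with 1.05, 0.981 and 0.528. Most of these genes lie side by side in 1 complex on 3R and are not independent of each other. E(spl)m6-BFM lies within that complex, between members at far higher levels.

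Lists named for further tissues had medians nearer to the middle of the ranking than the lists of mesoderm and muscle genes. Whether genes of these lists, such as srp, are also active in mesodermal cells was not tested. Neural genes had a median of 0.912 ± 0.032 CPM per site over 26 genes, with 2 in the highest decile and 13 in the lower 50%. The RNA-binding protein gene elav (11.1, 10.9 and 10.1), moody (7.43 ± 0.20) and pros (3.32 ± 0.19) were the highest, and brp, of the presynaptic active zone, was the lowest with 0.186, 0.239 and 0.246. Ectoderm and epidermis genes had a median of 0.880 ± 0.079 over 19 genes and none in the highest decile, from the signal gene wg (5.82 ± 0.29), en (5.70 ± 0.77) and Tl (3.04 ± 0.19) down to knk (0.136 ± 0.19). The list of endoderm, trachea, blood and salivary gland genes had a median of 1.49 ± 0.16 over 15 genes. Within it the GATA factor gene srp (27.7, 28.2 and 26.6), CrebA (10.8 ± 0.22) and GATAe (6.14 ± 1.07) stood highest, and the hemocyte gene NimC1 (0.162 ± 0.096) lowest. Germ line genes had a median of 0.804 ± 0.017 over 11 genes, from vas (5.70 ± 0.60), aub (4.20 ± 0.11) and pgc (3.58 ± 0.60) to ovo (0.349 ± 0.087), and the 8 Hox genes one of 2.06 ± 0.15, from abd-A (6.11 ± 0.37), Abd-B (3.45 ± 0.32) and Antp (2.33 ± 0.094) to Dfd (0.278 ± 0.14).

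Families of terminally differentiated or sensory cells filled the lower part. The 179 chemoreceptor genes had a median of 0.119 ± 0.0099 CPM per site and 157 of them were in the lower 50%. Gr93a (6.72 ± 1.49), Ir60b (6.13 ± 1.27) and Or71a (3.34 ± 1.53) were the highest, and Ir7d had 0 counts in every library. Cuticle protein genes had a median of 0.146 ± 0.015 over 91 genes with 83 in the lower 50%. Their range reached from Cpr78E (33.6, 42.1 and 40.9), Cpr73D (5.80 ± 0.23) and TwdlF (1.92 ± 0.96) to TwdlH, which had 0 counts in every library. Trypsin-like and Jonah protease genes had a median of 0.188 ± 0.060 over 27 genes, with kappaTry (2.94 ± 0.61), zetaTry (1.65 ± 0.27) and thetaTry (0.877 ± 0.49) as the highest and etaTry (0.0183 ± 0.032) as the lowest.

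Odorant binding protein genes had a median of 0.213 ± 0.069 CPM per site over 38 genes, yet 3 of them were in the highest decile. Obp28a (46.3, 35.4 and 38.9) had 99.6% of its counts in 1 of 4 sites and fell from rank 170 to 9002 without it, and the list's median moved from percentile 17.9 to 62.6 over sites with 10 or more counts, while Obp99a (30.3, 32.2 and 39.0) and Obp99c (6.63 ± 0.65) kept ranks of 143 and 1241. Obp19c was the lowest with 0.0135 ± 0.023. Cytochrome P450 genes had a median of 0.320 ± 0.025 over 87 genes matched by name. The highest of these, Cyp1 (40.2 ± 5.48), is a cyclophilin gene and no P450 gene, Cyp4ae1 (11.9 ± 2.26) and Cyp4p2 (5.53 ± 0.43) came next and Cyp28c1 (0.0343 ± 0.030) was last. The 32 genes of the dpr and DIP families of neuronal surface proteins had a median of 0.303 ± 0.027 and none in the highest decile, from dpr19 (3.51 ± 0.16), dpr14 (1.71 ± 0.53) and dpr10 (1.38 ± 0.16) to dpr21 (0.0597 ± 0.011).

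By biotype, the medians were close while the tails differed. The median protein-coding gene (12458 genes) had 0.786 ± 0.012 CPM per site and the median noncoding RNA gene (1005 genes) 0.661 ± 0.019, a difference of 0.25 ± 0.025 on the log2 scale that was positive in 3 of 3 libraries (exact sign-flip permutation test, two-sided, p = 0.25, the smallest value that 3 libraries allow). The direction turned with a filter on sites: over sites with 10 or more counts in the 3 libraries together, the log2 difference was -0.26. Of the noncoding RNA genes 13.1% were in the highest decile, against 9.79% of the protein-coding genes. Within the noncoding genes, the 617 lncRNA genes had a median of 0.661 ± 0.029 and the 343 antisense RNA genes 0.752 ± 0.023. The 173 pseudogenes lay at 0.172 ± 0.0093. Only 1 snRNA gene and 1 tRNA gene had 3 or more sites, so these classes could not be described. Counting was not stated to use strand, and the assay marks DNA and not RNA, so an antisense gene and its partner cannot be told apart.

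Along the gene, occupancy was highest at its start. Over 6473 genes with a site within 250 bp of an annotated start and 3 or more sites over 1000 bp away from every start, the median log2 ratio of promoter to body level was 0.94, 0.99 and 0.98 in the 3 libraries, a mean of 0.97 ± 0.026 (SD, n = 3, exact sign-flip permutation test, two-sided, p = 0.25, the smallest possible). The promoter was the higher of the 2 in 4594 of the 6473 genes (71.0%). The log2 ratio used CPM per site + 0.5, which understates the change of low genes. Without the strongest site of each gene the value was 0.65. By decile of the ranking the median log2 ratio, over the means of the 3 libraries, was 2.94 in the highest, 1.13 in the fifth and 0.020 in the lowest decile, where many sites held no counts.

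Named genes differed widely in this respect. Taldo had 1286 CPM per site at its 1 promoter site and 0.821 over 5 body sites, and Trx2 had 848 against 20.8, Calr 548 against 12.3, Trl 203 against 5.99 and Mes2 184 against 10.8. Muscle genes with the same order were Tm2 (101 against 7.70), Mlc1, a myosin light chain gene (315 against 45.7), Act87E (182 against 60.6), lmd (249 against 49.9) and nau (103 against 22.6). The opposite order was found in Act57B (28.9 against 89.6), srp (8.74 against 42.1), sty (6.92 against 24.3) and chic (4.96 against 78.5). A high level over the whole gene thus came with a promoter peak in some of these genes and with a signal over the body in others. Over all genes the promoter was higher in 71.0%, with a median log2 ratio of 0.91 over the means of the libraries. Among lists, the promoter was higher in all 15 myoblast fusion genes with enough sites (median log2 ratio 2.32) and in 15 of 17 proteasome genes (1.97). The sarcomere list with 16 of 22 (1.46) and the cell cycle list with 12 of 16 (2.13) were near the share of all genes, and mesodermal transcription factor genes had 11 of 17 (1.92). The counts were lower in mesodermal signalling genes with 9 of 17 (0.66), cytoplasmic ribosomal protein genes with 5 of 10 (0.094), chemoreceptor genes with 29 of 60 (0) and dpr and DIP genes with 5 of 14 (-0.33).

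**Figure D3:**
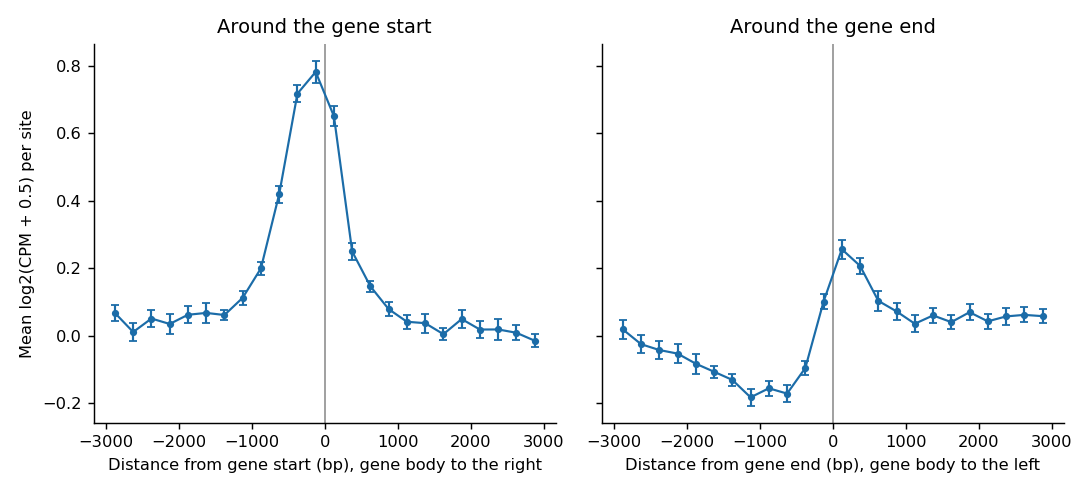
Mean log2(CPM + 0.5) per GATC site in bins of 250 bp around the start (left) and the end (right) of ranked genes, as the mean and SD over 3 twi Dam-PolII libraries. The level peaks at 0.78 in the bin just before the start and is lowest, at -0.18, within the last 1250 bp before the end.

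The profile around gene starts showed the same on all sites. The mean log2(CPM + 0.5) per site was 0.067 ± 0.024 in the bin from 3000 to 2750 bp before the start, 0.78 ± 0.032 in the last 250 bp before it, 0.65 ± 0.030 in the first 250 bp after it and 0.041 ± 0.021 from 1000 to 1250 bp (SD, n = 3). In CPM the bin just before the start held 8.97 ± 0.094 per site and the one after it 8.64 ± 0.062. Sarcomere genes held 55.0 ± 2.36 and 55.0 ± 2.03 CPM per site in these 2 bins (34 sites each), ribosomal protein genes 30.8 ± 1.46 and 41.1 ± 2.30, and chemoreceptor genes 0.714 ± 0.088 and 0.781 ± 0.066. Around gene ends the profile dipped to -0.18 ± 0.024 from 1250 to 1000 bp before the end and reached 0.26 ± 0.028 in the 250 bp after it. Genes lie close together in this genome, and whether the rise after the end belongs to starts of neighbouring genes was not tested.

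A GATC close to the start is a matter of sequence. The window from 250 bases before to 50 bases after the gene start held the motif GATC (the same on both strands) in 45.7% of 13622 genes, in 11 of 13 Enhancer of split and Bearded genes, 21 of 24 sarcomere genes, 15 of 26 mesodermal transcription factor genes and 18 of 69 cytoplasmic ribosomal protein genes. The letters TATAAA, the core of the TATA box, were on the strand of the gene in 30.2% of all windows and in 9 of 13, 4 of 24, 7 of 26 and 25 of 69 windows of the same lists. These are matches of letters and not sites of binding. The 9069 genes with a GATC inside the gene and within 250 bp of a start had a median of 0.846 ± 0.018 CPM per site. The 4553 without such a site had 0.662 ± 0.0076 (SD, n = 3 each), and the 3 libraries of one class lay above the 3 of the other. A GATC that was only upstream of the gene did not count here. These classes were not matched for length or gene class, whose part in the difference was not tested.

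Between exons and introns of the same gene the difference was small and went the other way. Over 4161 genes with 3 or more sites in each, the median log2 ratio of exon to intron level was -0.20, -0.21 and -0.20 in the 3 libraries, a mean of -0.20 ± 0.0053 (SD, n = 3, exact sign-flip permutation test, two-sided, p = 0.25, the smallest possible), and exons were higher in 1690 genes (40.6%). In the highest decile of the ranking the median was -0.75. Trl (3.57 at exonic and 206 at intronic sites), Trx2 (11.6 and 353), how (4.71 and 27.3), Kah (13.1 and 55.5) and sns, which encodes a fusion receptor of the immunoglobulin superfamily (4.84 and 18.6), were higher in introns, while nau (65.7 and 16.2) and Vrp1 (81.9 and 20.3) were higher in exons. Sites near a start were kept in this contrast, and the 1 promoter site of Trx2 given above is also its strongest intronic site. The median log2 ratio of exon to intron level was negative under every alternative run, from -0.34 to -0.14.

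**Figure D4:**
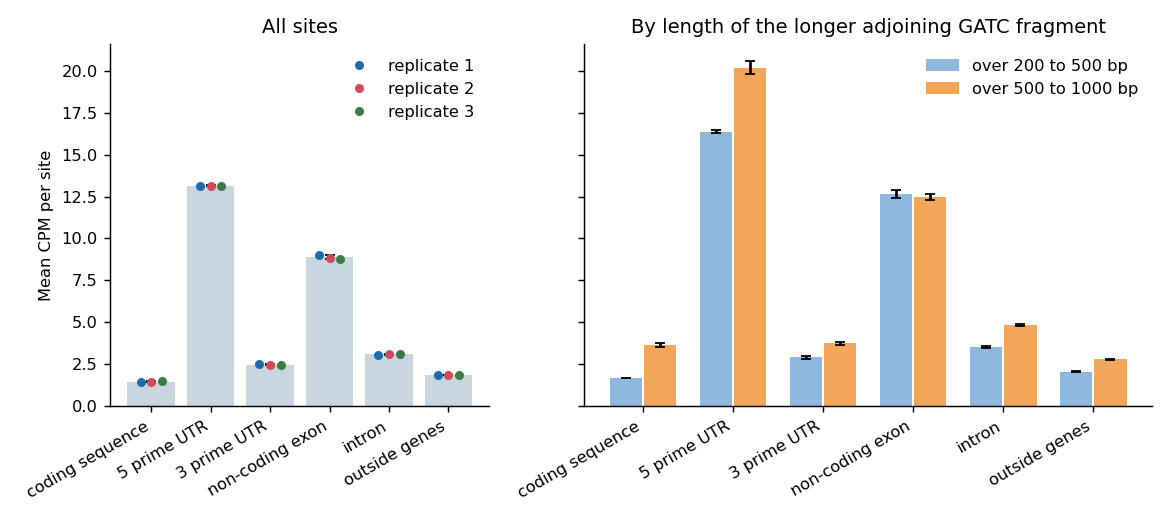
Mean CPM per GATC site by feature in twi Dam-PolII, over all sites with the 3 libraries as points (left) and for sites whose longer adjoining GATC fragment is over 200 to 500 bp or over 500 to 1000 bp (right); bars are means and error bars SD over 3 libraries. Sites in 5′ UTRs are highest in each panel (13.1, 16.4 and 20.2), and coding sites are below intronic ones.

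By feature, sites in 5′ untranslated regions (UTRs) held 13.2, 13.1 and 13.1 CPM on average and those in exons of noncoding RNAs 8.99, 8.86 and 8.77. Sites in introns held 3.08 ± 0.015, in 3′ UTRs 2.47 ± 0.039, outside genes 1.84 ± 0.013 and in coding sequence 1.46 ± 0.015 (SD, n = 3 each). The 5′ UTRs had 2.93% of the sites and 14.9% of the counts, and coding sequence had 32.7% of the sites and 18.5% of the counts. The libraries differed by far less than the features did.

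The length of the fragments between neighbouring GATC motifs moved with these values. Sites whose longer adjoining fragment was at most 100 bp held 0.116 ± 0.011 CPM, those over 500 to 1000 bp 4.53 ± 0.078 and those over 2000 bp 1.39 ± 0.020 (SD, n = 3). Coding sites had a median longer fragment of 240 bp and intronic ones of 483 bp. Within the class of over 200 to 500 bp, coding sites held 1.66 ± 0.021, intronic sites 3.49 ± 0.062 and 5′ UTR sites 16.4 ± 0.094, and within over 500 to 1000 bp they held 3.64 ± 0.11, 4.81 ± 0.064 and 20.2 ± 0.39. The order of these 3 features was therefore present within both length classes, and in both the log2 ratio of exon to intron level was -0.26. These classes were chosen after the values by feature had been seen.

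Among chromosomes, the arms 2L, 2R, 3L and 3R had medians of 0.752 ± 0.031, 0.894 ± 0.019, 0.735 ± 0.013 and 0.728 ± 0.012 CPM per site, so that 2R lay above the others in every library. The X chromosome (2233 genes) had 0.737 ± 0.0085 against 0.774 ± 0.015 for the 11239 genes of the 4 arms, a log2 difference of -0.072 ± 0.028 that was negative in 3 of 3 libraries (exact sign-flip permutation test, two-sided, p = 0.25). Its sign was not stable. It was 0.075 over sites inside exactly 1 gene, 0.027 over sites with a fragment of 200 to 1000 bp and 0.018 over genes with 10 or more sites. Levels on X and Y were not scaled to the copies of these chromosomes, and the labels give no sex of the embryos.

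The 95 genes of chromosome 4, a small and largely heterochromatic chromosome, had a median of 1.42, 1.45 and 1.57 CPM per site in the 3 libraries. Their log2 difference from the arms was 0.93 ± 0.050 (SD, n = 3, positive in 3 of 3, exact sign-flip permutation test, two-sided, p = 0.25), although the highest gene had only 28.8 CPM per site and the mean over all sites, 2.64 ± 0.094, was near that of the arms (2.49 to 3.13). Of its sites 22.2% had no count in any library, against 32.7% to 36.8% on X and the 4 arms. Over sites with 10 or more counts the log2 difference was 0.063, which is close to 0. Of 55 genes on the Y chromosome 54 were in the lower 50%, and 75.3% of Y sites had no count in any library.

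To show where the twi landscape differs from that of the other Dam-PolII group, counts per gene were compared with the libraries labelled bap Dam-PolII. That label is in doubt: the first exon of jeb (9 sites) held 382, 367 and 470 CPM in these libraries against 4.95, 3.45 and 3.41 in twi Dam-PolII, and Polr2A exons (50 sites) held 2072, 2043 and 2088 against 267, 269 and 260. Driver and any further transgene or batch therefore cannot be told apart in the values that follow. By edgeR's quasi-likelihood test 3112 of 11148 genes tested (27.9%) were called at an adjusted p under 0.01, 1324 (11.9%) higher and 1788 (16.0%) lower in twi. With total counts in place of TMM scaling the median log2 difference of all genes moved from 0.094 to 0.31 and the calls to 1803 higher and 1355 lower, so directions are relative to the scaling.

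Somatic and early mesodermal regulators were higher in twi. Of 18 somatic muscle identity genes 14 were called higher and 1 lower (median log2 difference 1.64, against 0.094 over all genes tested), and of 26 mesodermal transcription factor genes 14 were higher and 6 lower (0.78). lmd had 56.3, 49.5 and 53.3 CPM per site in twi against 7.58, 10.5 and 10.7 (log2 difference 2.25 ± 0.13 SE, edgeR adjusted p = 5.85e-11). The factor genes ap (2.43) and Ptx1 (2.82), twi (2.58) and zfh1 (1.51) also rose in twi. The GAL4 driver of this group uses a regulatory element of the gene twi, whose part in the value for that gene was not tested. Over all genes, srp, a GATA factor gene of the endoderm, trachea, blood and salivary gland list, with 27.7, 28.2 and 26.6 against a mean of 3.45 ± 0.15 (SD, n = 3, log2 difference 2.78 ± 0.077 SE, edgeR adjusted p = 4.50e-15), led the genes higher in twi, and the overlapping lncRNA:CR44133 (2.80) shares its locus. Next were Vrp1 (38.8, 38.4 and 40.1 against 7.09, 6.84 and 6.76, log2 difference 2.29) and hll (26.1, 22.2 and 20.3 against 1.37, 1.10 and 1.18, log2 difference 4.02). Every value of these genes in twi was above every value in the other group.

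Many Notch-responsive genes, and a part of the ribosomal protein genes, were higher in twi too. Of 13 Enhancer of split and Bearded genes 12 were called higher and none lower (median log2 difference 2.78), with E(spl)malpha-BFM (60.6 ± 3.49 against 5.27 ± 0.27 CPM per site, SD, n = 3 each), E(spl)m5-HLH (63.4 ± 3.17 against 5.55 ± 0.51) and E(spl)m4-BFM (46.9 ± 2.95 against 4.82 ± 0.83) as the most significant. Of 68 cytoplasmic ribosomal protein genes 28 rose, none fell and 40 were not called, and of 18 cell cycle genes 6 rose, none fell and 12 were not called, beside 11.9% higher and 16.0% lower over all genes tested. RpL3 (1.93), RpLP2 (1.64), RpS12 (2.86), dap (1.61), CycE (0.57), dup (1.03) and, of 4 of 15 translation factor genes, eEF1alpha1 (1.59), eEF2 (1.21) and eIF6 (1.81) are the log2 differences with the smallest adjusted p in their lists. Among myoblast fusion genes 8 of 21 rose and 3 fell, sns with 14.8, 15.2 and 15.5 against 2.15, 2.75 and 2.67.

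Visceral mesoderm genes were lower in twi: 12 of 16 were called lower and 2 higher. The adhesion protein gene Fas3, a marker of this tissue, had 3.21, 3.48 and 3.36 CPM per site in twi against 15.4, 15.3 and 15.8 (log2 difference -2.42 ± 0.077 SE, edgeR adjusted p = 4.76e-14), the BMP ligand gene dpp had 4.92, 5.15 and 4.83 against 13.6, 13.1 and 13.4 (-1.64), and org-1, a T-box factor gene of visceral founder cells, had 5.64, 5.36 and 5.07 against 17.0, 18.8 and 19.1 (-1.99). For jeb (-3.62) the label check above applies directly. The doubt about the label covers the other genes here too, and the paper counts org-1 and dpp among known targets of Alk. Of 19 mesodermal signalling genes 11 were lower and 3 higher, with the Dpp receptor gene tkv at -0.70 and the FGF receptor gene htl higher at 1.14. Of 24 sarcomere genes 10 were lower, among them Zasp52 (-2.00), Actn (-1.24) and Tm1 (-0.68), and 5 higher. With total counts the balance turned for the sarcomere list, to 5 lower and 7 higher.

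**Figure D5:**
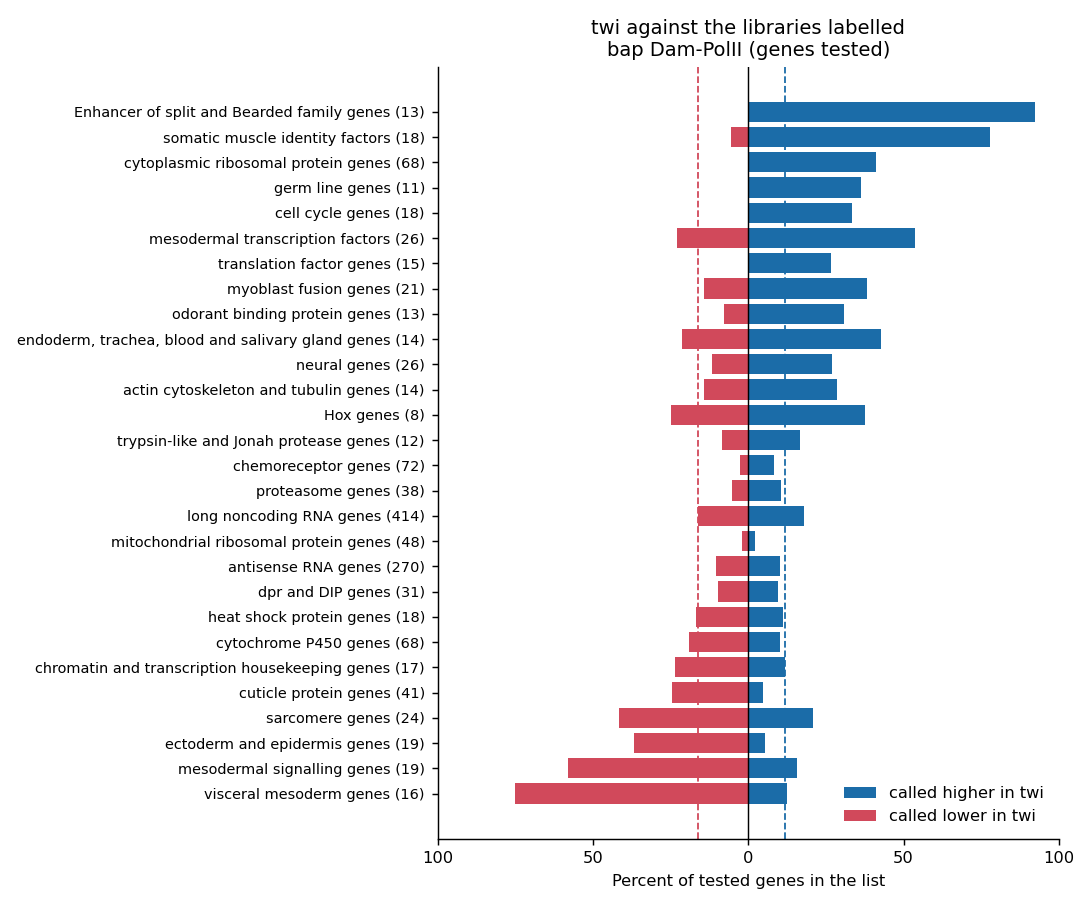
Percent of the tested genes of each list that were called higher (right, blue) or lower (left, red) in twi Dam-PolII than in libraries labelled bap Dam-PolII, with the numbers tested in parentheses; dashed lines give the share over all genes tested, 11.9% higher and 16.0% lower. Enhancer of split and somatic muscle identity genes extend furthest to the right, visceral mesoderm genes furthest to the left.

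The 4 genes lower in twi with the smallest adjusted p were pip (0.907, 1.05 and 0.967 against 16.9, 17.3 and 16.9 CPM per site, log2 difference -4.34), Polr2A (-2.88), EAChm (0.128, 0.0677 and 0.108 against 30.1, 24.9 and 29.6, -8.37, from 6 to 8 counts per twi library) and the synaptotagmin gene Sytbeta (0.370, 0.281 and 0.276 against 8.06, 6.69 and 7.08, -4.78). EAChm lies inside Sytbeta on 3L and shares its sites, so they are not separate results. For Polr2A, whose exons were part of the label check above, the same doubt applies as for jeb. Genes of the lists for further tissues differed as well. Of ectoderm and epidermis genes 7 of 19 were lower and 1 higher, with the apical determinant gene crb at 1.03, 0.915 and 0.937 against 8.18, 8.53 and 8.15 (-3.33), verm (-2.44) and wg (-1.30), and of 41 cuticle protein genes 10 were lower and 2 higher, with Cpr78E (-1.94) and Cpr51A (-2.08). Cpr49Aa had 0 counts in all 3 twi libraries and 2.48 ± 0.76 CPM per site in the other group. Of 14 genes of the endoderm, trachea, blood and salivary gland list 6 were higher, srp and GATAe (2.73) among them, and 3 lower, among them CrebA (-1.90), a secretory pathway factor gene. Neural genes had 7 of 26 higher and 3 lower, with pros (1.39), wor (2.32) and ase (2.13), which act in neural progenitors, as the most significant. The cells from which these signals came were not separated, and their part in the result was not tested.

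The remaining lists are given by their counts, to be read against 11.9% higher and 16.0% lower over all genes tested. Of 11 germ line genes 4 were higher and none lower (vas 0.97, aub 0.93 and tud 1.01). The call of vas ended over sites inside exactly 1 gene (log2 difference 1.57, edgeR adjusted p = 0.157). Of 8 Hox genes 3 were higher and 2 lower (Scr -1.22, abd-A -1.13 and Abd-B 1.09), and of 14 actin and tubulin genes 4 were higher and 2 lower (Act5C 1.42, Act42A 1.98 and zip -0.93). Proteasome genes had 4 higher and 2 lower of 38 (Rpn9 -1.40, Rpn7 2.83, Prosalpha2 -1.44), heat shock protein genes 2 and 3 of 18 (Hsp70Bb -1.82, Hsc70-1 -1.49, Hsc70-4 0.67), mitochondrial ribosomal protein genes 1 and 1 of 48 (mRpL13 3.98, mRpL48 -1.62) and chromatin genes 2 and 4 of 17 (ph-p -0.50, Psc -0.89). Cytochrome P450 genes had 7 higher and 13 lower of 68 (Cyp304a1 -4.28, Cyp4p2 3.42, Cyp4d20 -1.49; 9 and 9 with total counts), dpr and DIP genes 3 and 3 of 31 (dpr3 2.64, dpr2 2.29, DIP-lambda -0.92), chemoreceptor genes 6 and 2 of 72 (Ir25a 1.72, Ir40a 1.67, Ir93a -0.80) and odorant binding protein genes 4 and 1 of 13 (Obp73a 2.37, Obp99c 1.53, Obp56a 3.74). Of 414 lncRNA genes tested 74 were higher and 67 lower, lncRNA:CR45119 (-6.70) and lncRNA:CR45004 (-5.56) among the latter, and of 270 antisense RNA genes 28 each, with asRNA:CR43243 (-3.28), asRNA:CR45268 (-5.46) and asRNA:CR46194 (2.03). With total counts the lncRNA genes had 94 higher and 50 lower, the antisense RNA genes 42 and 23, the dpr and DIP genes 6 and 2 and the heat shock protein genes 2 and 2. The values beside gene names in parentheses are log2 differences, twi minus bap. Of 12 trypsin-like and Jonah protease genes tested 2 were higher and 1, Jon99Fi (-3.38), was lower, and epsilonTry had 0 counts in all 3 libraries of the other group and 0.275 ± 0.11 CPM per site in twi.

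For 5 of these genes the call ended when 1 library was left out, and the values are edgeR adjusted p without it. For tud they were 0.0218 and 0.0182 without twi replicate 2 or 3 and 0.0322 and 0.0213 without bap replicate 2 or 3. For Prosalpha2 they were 0.0116 without twi replicate 2 and 0.014 without bap replicate 3, and for Ir40a 0.0126 without twi replicate 1 and 0.0106 without bap replicate 2. Ir93a had 0.0105 without bap replicate 2 and, with all libraries, 0.0174 with total counts. The protease gene alphaTry, called higher in twi with 0.313 ± 0.12 against 0.00607 ± 0.011 CPM per site, had 0.0187 without twi replicate 1 and 0.0253 and 0.0239 without bap replicate 2 or 3.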

How the data were processed

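Targeted DamID was analysed in the 3 twi Dam-PolII libraries and, for 1 comparison, in the 3 libraries labelled bap Dam-PolII, as grouped by the deposited labels. Reads were placed by the authors on FlyBase's Release 6 genome (bowtie2), and the deposited table holds unscaled counts per library at all GATC sites; no filter is described. All GATC positions on the 7 chromosomes were identical to those of the NCBI Release 6 sequence. The authors also deposited tables of merged peaks with p-values of their comparisons, which were not used.

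Sites were assigned to genes of Ensembl release 115 (annotation BDGP6.54, Release 6 coordinates), a later annotation than the one the authors used. CPM used the total of all 400733 sites, and a site inside several genes counted for each. Sites of a gene are not replicates, so per-library medians were compared over the 3 libraries by an exact sign-flip permutation test. Replicates are biological per the labels. Counts per gene were tested with edgeR 4.0.16 (R 4.3.3; filterByExpr with min.count 10, TMM, quasi-likelihood F-test, Benjamini-Hochberg over all genes tested, adjusted p under 0.01). Tested on simulated data of twi against bap, it recovered 99.0% of 200 genes changed 4-fold and called 1 unchanged gene of 11306 tested. The simulation drew the changed genes from those above a count limit, used the same dispersion for all genes and balanced rises and falls. The real data need not meet these settings. Alternatives were DESeq2 1.42.0, limma 3.58.1 (voom), other scalings, filters, pseudocounts, site subsets, the replicate number as a block, and leaving out each library. Tables and plots were made in Python 3.11.15 (numpy 2.4.6, pandas 2.3.3; plots with matplotlib 3.10.9).

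The genes named are the 20 highest on the chromosome arms, the 3 highest and the 1 lowest of each list, the 4 higher and the 4 lower in twi than in bap with the smallest adjusted p whose groups do not overlap, up to 3 called genes of each list, and Polr2A and twi. 1 gene that this rule selects is not reported here. Genes named for promoter, body, exon and intron levels were picked from these and from further high members after their values were seen. The gene lists and members were chosen with earlier results of these data known, and listed symbols not found in the annotation were left out.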

Additional observations from a re-analysis of the deposited data

How the results depend on the processing

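Leaving out each library in turn kept every direction, with log2 values of -0.20 to -0.20 for exon against intron, 0.96 to 0.98 for promoter against gene body, -0.088 to -0.062 for X against autosomes, 0.90 to 0.95 for chromosome 4 against autosomes and 0.24 to 0.26 for protein-coding against lncRNA genes (all noncoding RNA genes), and with 2571 to 2843 genes called in twi against bap. TMM scaling moved none of the first 5 by more than the spread between libraries. In the same order, sites with 10 or more counts gave -0.22, 1.13, -0.0058, 0.063 and -0.26, sites inside exactly 1 gene -0.24, 1.03, 0.075, 0.81 and 0.69, genes without their strongest site -0.25, 0.65, -0.0073, 1.07 and 0.30, and sites with a fragment of 200 to 1000 bp -0.18, 1.01, 0.027, 0.69 and 0.10. Genes with 10 or more sites gave 0.018 for X, 0.59 for chromosome 4 and 0.14 for protein-coding genes. A pseudocount of 0.1 gave -0.34 and 1.44 for exon against intron and promoter against body, one of 1 gave -0.14 and 0.71, and a promoter width of 500 bp gave 0.84. In fragment classes chosen after seeing the data (over 200 to 500 bp and over 500 to 1000 bp), exon against intron was -0.26 and -0.26 and promoter against body 0.86 and 1.11. The sign turned for X and for protein-coding against noncoding RNA genes, and the cause was not tested.

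With a replicate block, twi against bap gave 3092 calls against 3112. Deviations of same-numbered libraries correlated at 0.029, -0.0029 and -0.017, so the libraries share only a number. Other scalings, filters, tools and site subsets gave 2559 to 3488 calls. Of 1104 values of 86 named genes, 14 in 6 genes lost their call (vas, tud, Prosalpha2, Ir40a, Ir93a and alphaTry) and 0 changed direction. Of the 100 highest genes 69 to 100 were kept under the alternatives, except for 23 with 10 or more sites per gene, which most of them lack. Of 252 list percentiles, 132 moved by less than 1 SD and 236 stayed on their side of the middle of the ranking. Those that crossed included odorant binding protein genes (17.9 to 62.6, the largest shift), germ line genes (52.8 to 29.8) and lncRNA genes (46.0 to 62.7) over sites with 10 or more counts, and mitochondrial ribosomal protein genes (63.7 to 41.8) and proteasome genes (53.2 to 43.7) over genes with 10 or more sites. Depth limits the lower part of the ranking, where a gene with few sites rests on single counts.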

Other observations

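The 9 ranked rRNA genes had a median of 20.2, 20.3 and 19.9 CPM per site in the 3 twi Dam-PolII libraries, and 8 of them were in the highest 10% of genes. Ribosomal RNA is made by another polymerase, and these genes are near-identical copies whose reads could be placed on any of them. The 3 ranked snoRNA genes had a median of 0.954 ± 0.21 CPM per site (SD, n = 3), snRNA:7SKa had 6.15, 2.97 and 6.83 and tRNA:Tyr-GTA-1-2 had 2.53, 1.39 and 0.732. Sites outside annotated genes were 26.4% of the sites on the chromosomes and held 18.7% of the counts there.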
